A study of Mus musculus with 40 samples.

Results

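The comparison described here is the effect of MitoGamide on the renal cortex taken over both genotypes, that is, the 10 libraries of MitoGamide-treated mice, labelled het-mitoG and wt-mitoG, against the 10 libraries of vehicle-treated mice, labelled het-etoh and wt-etoh, with genotype as a blocking factor. These 20 libraries are part of a series of 40. All animals were male C57BL/6J mice. The Akita mice were heterozygous for the Ins2-Akita mutation of an insulin gene and were diabetic, and their wildtype (WT) littermates carried no Ins2-Akita allele. Each genotype received either 10% ethanol in water, the vehicle, or MitoGamide at 10 mg/kg by daily gavage from 6 to 22 weeks of age, so that both the treated and the control animals had ethanol. Each of the 4 groups held 5 mice, with 1 library per mouse. The other 20 libraries, an arm on water with mice given water or MitoQ, are used for comparison with MitoQ, in an alternative fit of all 40 libraries and to define an axis of within-group differences for another. The question was whether a dicarbonyl scavenger aimed at mitochondria changes the kidney, and the main effect asks which transcripts changed whether or not the mouse was diabetic.

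MitoGamide carries a triphenylphosphonium cation, which draws it into mitochondria along the membrane potential, and a reactive group that traps methylglyoxal and glyoxal. These dicarbonyls are formed from sugars, react with proteins and nucleic acids, and are normally cleared by the glyoxalase enzymes, by aldehyde and aldo-keto reductases and dehydrogenases, and by deglycating enzymes. The renal cortex is mostly proximal tubule, a segment rich in mitochondria. Mitochondria hold their own small genome, which encodes subunits of the respiratory chain and ATP synthase together with ribosomal RNAs.

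Of 55401 genes in the table, 17256 averaged 10 or more counts across the 20 libraries and entered edgeR's quasi-likelihood test. A gene is called here where its Benjamini-Hochberg adjusted p was under 0.05. MitoGamide raised 608 genes (3.52% of those tested) and lowered 397 (2.3%), and 3882 genes had an unadjusted p under 0.05. All but 1 of the 1005 called genes had a fold change of the same sign in both genotypes, against 61.5% of all tested genes. Calling a gene on the pooled effect favours like signs, so the count is a description. The exception was Grem1, a secreted BMP antagonist, with 1.68 in Akita and -0.24 in WT mice on the log2 scale. As none was called for a difference between genotypes, 1004 met the definition of a gene moved alike. The changes were small. The median change was 0.25 on the log2 scale among raised genes and 0.31 in size among lowered genes, and 27 called genes changed by more than 1 on that scale. In a stricter reading, the 5 treated mice lay beyond all 5 vehicle mice in the same direction in each genotype. This held for 76 genes (0.44% of those tested), of which 49 were higher and 27 lower with treatment, and all 76 were called. In bulk tissue, fewer cells of a type and less RNA per cell cannot be told apart.

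The number of called genes depended on how the samples were modelled. It was 1632 with DESeq2, and between 581 and 666 when Akita vehicle replicate 1, 2 or 4 or WT vehicle replicate 3 or 4 was left out. It fell to 179 when offsets removed the smooth trend on GC content and transcript length in each library, 44 when all 40 libraries shared a single estimate of spread, 361 with library size as a covariate, and 412 without the genotype block. A set of 92 genes was called under more of these readings, namely whichever of the 20 libraries was removed, by DESeq2, with GC and length offsets, and with a further term for library size, for the replicate number or for the leading axis of within-group differences. This set of 66 raised and 26 lowered genes was chosen after the values were seen, and 16 of the 92 were also called with all 40 libraries in one fit. Of the genes described below, it holds Dek, Hnrnpa3, Rock1, Rock2, Smc3, Emc2, Mrpl32, Rps24, 2010315B03Rik, Mafg, Romo1, Pex26, Lemd2, Renbp, Chrd, Rsrp1, H2ac18, mt-Nd3, Fn3k, Gstm5, Zfp759, Zfp971, Gm14305, Gm14325, Rpl21, Rpl23a, Commd1b, Ptges3-ps, Ppp1ccb, Rpl14-ps1, Rps7-ps3 and Gm49272, and also Gm37167 and Gm20458, which were at 0 in several treated mice, but not Krcc1, Ppig, Nfe2l2, Akr7a5 or any other mitochondrial gene.

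Of 7 library measures, the TMM scaling factor was lower with treatment (log2 difference -0.117, exact permutation p within genotypes 0.0018, 0.0042 adjusted over the 7), and the mitochondrial measures are given further on. The share of counts of the ribosomal RNA entry CT010467.1 had medians of 0.0499% on vehicle and 0.355% with MitoGamide in Akita mice, and of 0.0766% and 0.899% in WT mice (log2 difference 1.6, exact permutation p = 0.105, 0.111 adjusted over the 7), and its part in the gene changes was not tested. It and the axis of within-group differences (exact permutation p = 0.111) did not pass, nor did total counts. These had medians of 18178354 in WT vehicle and 14234163 in WT MitoGamide mice, and of 19075147 and 15655436 in Akita mice (log2 difference -0.21, exact permutation p within genotypes 0.0676, 0.0946 adjusted over 7 library measures). The level of the proximal tubule markers, summed over 13 genes including Slc34a1 and Lrp2, lay between 18840 and 33910 CPM (counts scaled to library size) in all 20 libraries, and none of the 13 was called. Papillary markers were tested for 2 of 7 genes and stayed under 20 CPM in sum.

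**Figure D1:**
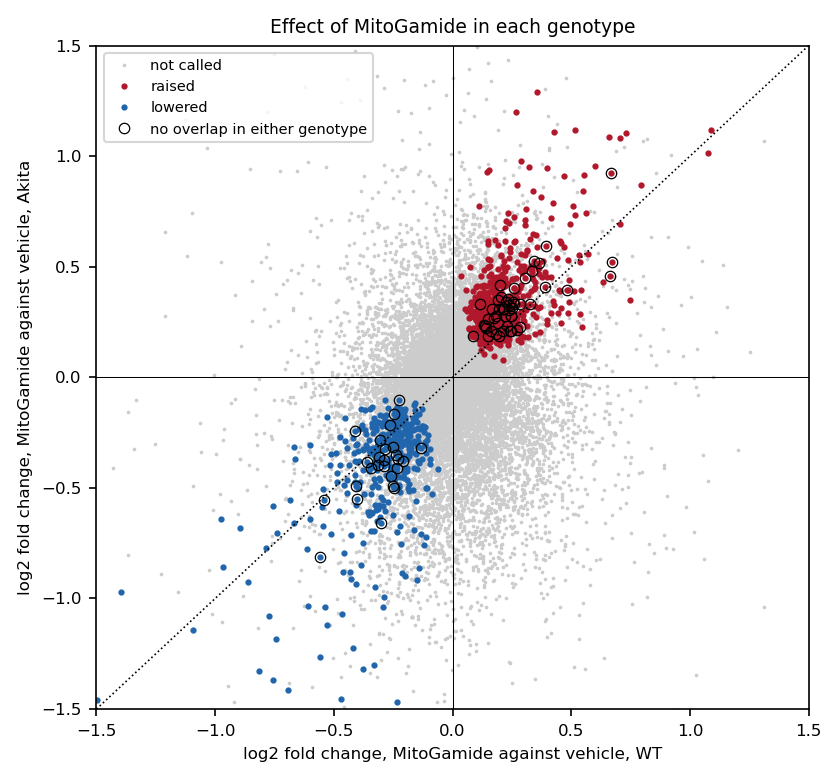
Log2 fold change of each tested gene with MitoGamide in WT mice (horizontal) and in Akita mice (vertical), from 5 mice per group. Red and blue points are the 608 raised and 397 lowered genes, circles the 76 genes without overlap between groups in either genotype, and the dotted line marks equal effects. All called genes but Grem1 lie in the quadrants of like sign, and 780 of the 1005 have the larger effect in Akita mice. The axes end at 1.5, beyond which lie 95 genes, 21 of them called.

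The promoters of 4 genes that moved in all 20 leave-one-out fits are shown, because they are the regulatory stretches nearest to transcripts that shifted together, a pair raised and a pair lowered. They run from 250 bases before to 50 bases after the RefSeq start on the GRCm38.p6 build, written 5′ to 3′ on the strand of the gene. Capitals mark matches, on either strand, to the GC box GGGCGG, the antioxidant response element core TGACNNNGC, the TATA box TATAAA and the lysosomal CLEAR element TCACGTGA.
Dek promoter, chr13:47106172-47106471, minus strand: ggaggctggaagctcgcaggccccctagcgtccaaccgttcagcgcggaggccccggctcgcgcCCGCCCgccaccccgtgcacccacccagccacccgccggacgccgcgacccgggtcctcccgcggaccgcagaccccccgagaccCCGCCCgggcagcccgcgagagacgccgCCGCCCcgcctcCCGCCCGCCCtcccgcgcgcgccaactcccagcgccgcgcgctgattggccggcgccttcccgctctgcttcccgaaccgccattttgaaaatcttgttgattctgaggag
Hnrnpa3 promoter, chr2:75659009-75659308, plus strand: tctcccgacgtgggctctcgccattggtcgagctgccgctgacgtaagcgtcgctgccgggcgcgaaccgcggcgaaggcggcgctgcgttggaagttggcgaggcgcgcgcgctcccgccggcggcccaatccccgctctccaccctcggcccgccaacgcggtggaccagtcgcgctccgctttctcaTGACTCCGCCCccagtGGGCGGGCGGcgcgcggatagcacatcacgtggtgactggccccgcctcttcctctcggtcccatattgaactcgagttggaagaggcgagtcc
Mafg promoter, chr11:120633498-120633797, minus strand: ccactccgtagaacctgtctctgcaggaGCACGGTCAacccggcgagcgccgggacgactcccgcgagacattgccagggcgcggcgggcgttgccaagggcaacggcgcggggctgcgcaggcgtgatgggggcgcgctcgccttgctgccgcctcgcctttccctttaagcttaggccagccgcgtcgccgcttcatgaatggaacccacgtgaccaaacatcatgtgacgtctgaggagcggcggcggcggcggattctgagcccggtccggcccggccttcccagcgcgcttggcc
Romo1 promoter, chr2:156143983-156144282, plus strand: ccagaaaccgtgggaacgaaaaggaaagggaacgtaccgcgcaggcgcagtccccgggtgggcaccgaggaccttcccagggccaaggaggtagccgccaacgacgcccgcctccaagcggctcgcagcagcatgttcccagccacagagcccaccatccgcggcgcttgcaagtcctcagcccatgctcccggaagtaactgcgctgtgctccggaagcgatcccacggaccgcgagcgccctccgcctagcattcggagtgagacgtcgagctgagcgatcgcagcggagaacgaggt
Dek and Hnrnpa3, both raised, hold 5 and 3 GC boxes, of which one in Hnrnpa3 overlaps its single antioxidant core match. Mafg, which was lowered, holds 1 antioxidant core match, and Romo1, also lowered, holds none of the 4 motifs. The antioxidant core was found in 16.6% of 427 raised, 13.6% of 294 lowered and 14.5% of all 11756 tested genes with a promoter entry. The GC box was found in 66.3%, 66.7% and 59.8%, the TATA box in 6.56%, 7.48% and 8.26%, and the CLEAR element in 1.41%, 3.4% and 1.78% of the same sets. The median GC content of the promoters was 63% in raised and 61% in lowered genes against 60% in all. Their median number of CpG dinucleotides was 25 in raised, 20 in lowered and 19 in all genes. The transcripts themselves differed far more in GC content, as described further on.

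Among the protein-coding genes raised with the smallest p was Dek, followed by genes of varied function. Dek (chromosome 13, 47084775 to 47106201), a chromatin-bound architectural protein, measured 26.5, 27, 28.5, 28.8 and 29.7 CPM in WT vehicle mice and 31.9, 32.9, 32.9, 34.4 and 36 CPM with MitoGamide. In Akita mice the values were 28.1, 28.4, 29.6, 31.2 and 31.7 CPM on vehicle and 36.4, 37.2, 40.9, 41 and 41.7 CPM with MitoGamide. No treated value reached down to a vehicle value in either genotype, and the log2 fold change was 0.33 (SE 0.045, edgeR adjusted p = 0.00123). Hnrnpa3, an RNA-binding protein that takes part in splicing and mRNA transport, was 99.9 ± 7.98 CPM in WT vehicle and 118 ± 8.85 CPM in WT MitoGamide mice (SD, n = 5). The corresponding levels in Akita mice were 78.9 ± 3.03 and 99 ± 4.84 CPM, again without overlap. Its change was 0.28 (SE 0.046, edgeR adjusted p = 0.00304). Without the genotype block Hnrnpa3 was not called, with a change of about the same size (0.28, edgeR adjusted p = 0.0586).

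Rock1 and Rock2, kinases that drive actomyosin contraction, were both raised. Rock1 was 76.6 ± 2.04 CPM on vehicle and 90.9 ± 4.79 CPM with MitoGamide in WT mice, and 74.9 ± 2.31 against 86.7 ± 4.1 CPM in Akita mice (SD, n = 5, log2 fold change 0.23, edgeR adjusted p = 0.00238). Rock2, named after its values were seen, rose from 59.3 ± 3.97 to 68.3 ± 4.36 CPM and from 58.7 ± 1.76 to 75.5 ± 8.18 CPM in the same order (log2 fold change 0.28, edgeR adjusted p = 0.00454). Neither gene overlapped between treated and vehicle mice. With GC and length offsets the change of Rock1 was smaller, 0.14 (edgeR adjusted p = 0.0411). Smc3, a subunit of the cohesin ring that holds sister chromatids and loops together, also had no overlap, and was likewise chosen after its values were seen (log2 fold change 0.29, edgeR adjusted p = 0.00363).

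Other raised genes given by the naming rule were Emc2, a subunit of the complex that inserts proteins into the endoplasmic reticulum membrane, Mrpl32, a protein of the mitochondrial ribosome, Rps24, a protein of the small cytosolic ribosomal subunit, and Ppig, a peptidyl-prolyl isomerase of nuclear speckles. Emc2 was 23 ± 1.42 CPM in WT vehicle and 27.5 ± 1.74 CPM in WT MitoGamide mice, and 22.9 ± 1.32 against 30.2 ± 0.876 CPM in Akita mice (SD, n = 5, log2 fold change 0.33, edgeR adjusted p = 0.00123). Mrpl32 changed by 0.38 (SE 0.057), Rps24 by 0.38 (SE 0.059) and Ppig by 0.30 (SE 0.047) on the log2 scale. Krcc1 changed by 0.38 and 2010315B03Rik by 0.40, and both had no overlap between groups. Krcc1 and Ppig were not called with GC and length offsets (edgeR adjusted p 0.0732 and 0.0641), where their changes were 0.32 and 0.19, whereas the other genes of this paragraph were called. When all 40 libraries were fitted together, Hnrnpa3 (edgeR adjusted p = 0.0329) and Rock2 (0.0401) were still called. In that fit Dek (0.156), Emc2 (0.191), Rps24 (0.408), Mrpl32 (0.111), Rock1 (0.0927), Smc3 (0.068), Krcc1 (0.159), Ppig (0.129) and 2010315B03Rik (0.0525) were not.

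The protein-coding genes lowered with the smallest p included Mafg, Pex26 and Romo1. Mafg (chromosome 11, 120625117 to 120633600) encodes a small Maf protein, the DNA-binding partner of NRF2 at antioxidant response elements. It measured 57.9, 58.5, 60.4, 61.9 and 63.9 CPM in WT vehicle mice against 47.7, 49.4, 50.6, 51 and 55.4 CPM with MitoGamide. In Akita mice it measured 48.5, 50.8, 50.9, 56.4 and 63 CPM on vehicle and 36, 36.2, 38, 39.4 and 42.1 CPM with MitoGamide. All 10 treated values were below the vehicle values of their genotype, and the change was -0.37 (SE 0.055, edgeR adjusted p = 0.00211). Romo1, a small protein of the mitochondrial inner membrane that modulates reactive oxygen species, was 22.4 ± 1.41 CPM on vehicle and 16.9 ± 2.38 CPM with MitoGamide in WT mice, and 25.6 ± 2.17 against 18.1 ± 2.12 CPM in Akita mice (SD, n = 5). It did not overlap between groups (log2 fold change -0.45, SE 0.068, edgeR adjusted p = 0.00227), and with GC and length offsets the change was -0.26 (edgeR adjusted p = 0.0128). Mafg overlaps Sirt7 on the same strand, and Dek and Romo1 overlap Kdm1b and Nfs1 on the opposite strand, so that reads of these pairs may be shared.

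Pex26 (chromosome 6, 121183667 to 121198837), which anchors the import machinery of peroxisomes, measured 17.1, 17.4, 19, 19.1 and 20.5 CPM in WT vehicle and 12.2, 14.3, 15.2, 15.9 and 15.9 CPM in WT MitoGamide mice. In Akita mice it was 20.2, 21.8, 22.1, 22.7 and 22.8 CPM on vehicle and 15.1, 15.3, 16.3, 17.6 and 18.1 CPM with treatment. The groups did not overlap (log2 fold change -0.38, SE 0.056, edgeR adjusted p = 0.00211). Lemd2, a protein of the inner nuclear membrane, fell by 0.36 on the log2 scale without overlap (SE 0.058, edgeR adjusted p = 0.00304), and by 0.22 with GC and length offsets (edgeR adjusted p = 0.0285). Renbp, the renin-binding protein that is also an N-acylglucosamine epimerase, fell by 0.30 (SE 0.051), and Chrd, the BMP antagonist chordin, fell by 0.55 (SE 0.093). Both were lower in every treated mouse than in any vehicle mouse of the same genotype. Rsrp1, an arginine and serine-rich protein, fell by 0.34 without overlap. In the fit of all 40 libraries Pex26 (edgeR adjusted p = 0.00309), Lemd2 (0.0177) and Mafg (0.0308) were called, while Romo1 (0.116), Renbp (0.0977), Chrd (0.068), Rsrp1 (0.231) and H2ac18, described next (0.0927), were not.

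H2ac18, a replication-type histone gene, had the largest change among these protein-coding genes with more than marginal counts. Its level was 8.71 ± 2.2 CPM in WT vehicle and 4.04 ± 1.38 CPM in WT MitoGamide mice, and 10.5 ± 2.8 against 4.69 ± 1.62 CPM in Akita mice (SD, n = 5, log2 fold change -1.12, SE 0.18, edgeR adjusted p = 0.00304). The highest treated value in Akita mice, 6.55 CPM, was just above the lowest vehicle value, 6.47 CPM, and in WT mice these were 6.27 and 6.03 CPM. Of 40 tested histone genes, 4 were lowered (against 2.3% of all genes) and 0 raised, the others being H4c3, H4c8 and H4f16, while the median over the list was -0.087 (0.097 in Akita and -0.23 in WT mice) against -0.0064 over all tested genes. H4f16 was called in 6, H4c8 in 12, and H2ac18 and H4c3 in all 20 leave-one-out fits. H2ac18 alone was lowered with GC and length offsets, and the list median was 0.091. Histone genes are near-identical copies, so that read assignment among them is uncertain.

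**Figure D2:**
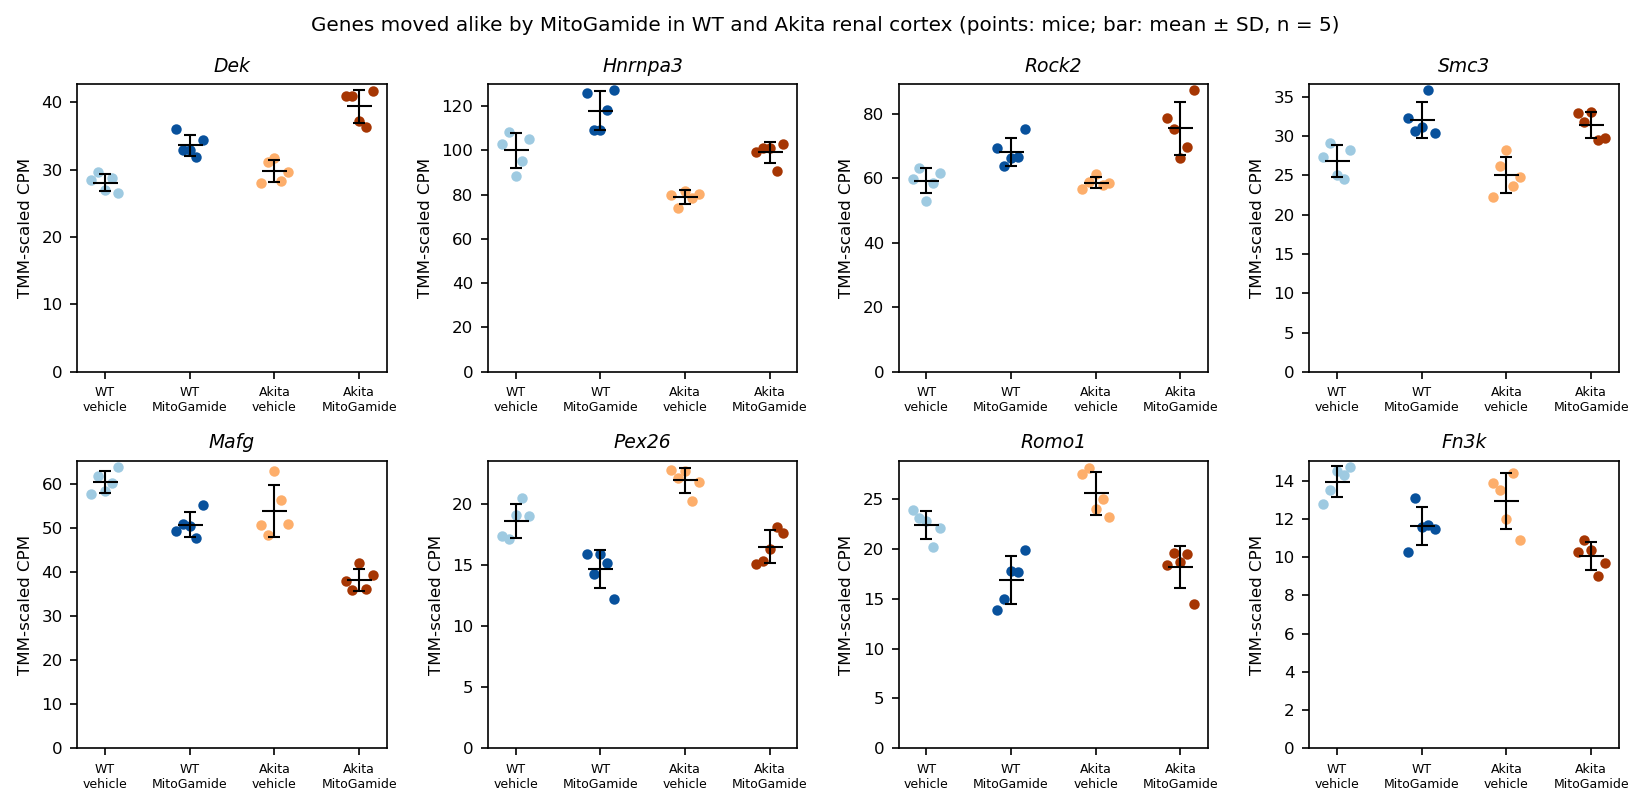
Levels of 8 genes in each mouse, in CPM scaled by TMM (vertical axes, from 0), by genotype and treatment. Points are single mice and bars are the mean ± SD of 5 mice. Dek, Hnrnpa3, Rock2 and Smc3 are higher, and Mafg, Pex26, Romo1 and Fn3k lower, with MitoGamide in both genotypes. For Fn3k the 2 Akita groups touch at 10.9 CPM, and the 2 WT groups overlap.

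In the main fit, transcripts encoded by the mitochondrial genome formed the group with the highest share of called members. Of 13 protein-coding mitochondrial genes, 8 were raised (against 3.52% of all tested genes) and 0 lowered. The median log2 fold change of the 13 was 0.41 (0.486 in WT and 0.345 in Akita mice). As genes of the same small genome, they are not independent measurements. The raised genes were mt-Nd2, mt-Nd3, mt-Nd4, mt-Nd4l, mt-Nd5 and mt-Nd6, which encode subunits of complex I, together with mt-Cytb of complex III and mt-Atp6 of ATP synthase. Of these, mt-Nd4l was called in 5, mt-Nd4 in 10 and mt-Cytb in 15 of the 20 leave-one-out fits, and the others in all 20. The 3 mitochondrial genes for complex IV were not called, with log2 fold changes of 0.25 for mt-Co1, -0.32 for mt-Co2 and 0.19 for mt-Co3 (edgeR adjusted p 0.18, 0.476 and 0.507). Likewise mt-Nd1 (0.35) and mt-Atp8 (0.68) did not pass the test (edgeR adjusted p 0.0661 and 0.0759). Levels of mt-Nd3 were 272, 315, 333, 337 and 355 CPM in WT vehicle mice and 424, 443, 472, 526 and 700 CPM with MitoGamide. In Akita mice mt-Nd3 measured 256, 297, 371, 375 and 393 CPM on vehicle and 437, 457, 498, 515 and 523 CPM with treatment. It was the only mitochondrial gene without overlap in both genotypes (log2 fold change 0.60, SE 0.091, edgeR adjusted p = 0.00238), and the only one called with GC and length offsets, under which the median of the 13 genes was 0.36. Under these offsets 15 of 84 cytosolic ribosomal proteins were raised, a higher share than that of the mitochondrial genes.

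Summed over the 13 genes, the mitochondrial messages had medians of 50425 CPM on vehicle and 57795 CPM with MitoGamide in WT mice, and of 53537 against 59216 CPM in Akita mice. The log2 difference was 0.29 (two-sided exact permutation p within genotypes 0.00022, 0.00077 adjusted over 7 measures). It was 0.17 without Akita MitoGamide replicate 5 and WT MitoGamide replicate 1, the 2 highest libraries (exact permutation p = 0.00107). As a share of all counts, the scale used next for ribosomal RNA, it was 0.17 and did not pass after adjustment (exact permutation p = 0.0473, 0.0828 adjusted). The 2 mitochondrial ribosomal RNAs together made up 15.1% to 17.8% of the counts in WT vehicle mice and 18.3% to 22.7% with MitoGamide. In Akita mice this share was 15.8% to 23.6% on vehicle and 22.4% to 27.2% with treatment (log2 difference 0.31, exact permutation p = 0.000126, 0.00077 adjusted). The depletion step removes mitochondrial ribosomal RNA, so that its level in the tissue and its removal cannot be told apart.

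**Figure D3:**
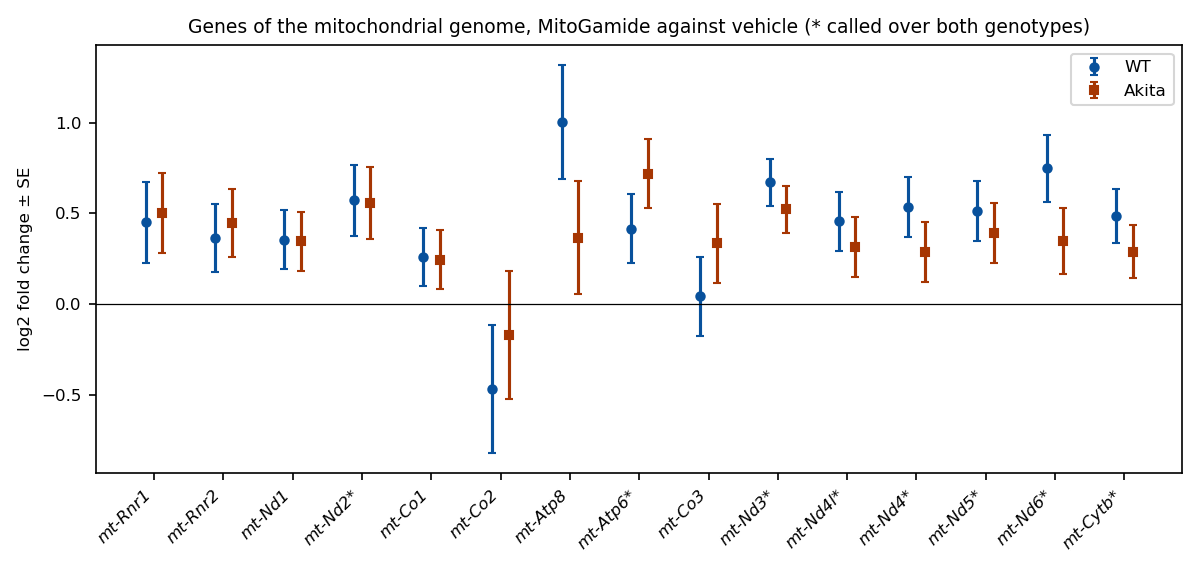
Log2 fold change with MitoGamide of the 13 protein-coding and 2 ribosomal RNA genes of the mitochondrial genome, in WT (circles) and Akita mice (squares), with the standard error of the fit as bars (5 mice per group). A star marks the 8 genes called over both genotypes, and mt-Co2 is the one protein-coding gene below 0 in both.

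Nuclear genes for the same machinery are set beside 3.52% raised and 2.3% lowered over all tested genes. Of 37 tested complex I subunits, Ndufb4 (0.24) and Ndufv2 (0.29) were raised and Ndufs7 (-0.23) was lowered. The median of the list was -0.04, with 0.047 in Akita and -0.086 in WT mice. Ndufv2 and Ndufs7 were not called with GC and length offsets (edgeR adjusted p 0.0871 and 0.582). Ndufb4 was called with these offsets, but not with the axis of within-group differences (edgeR adjusted p = 0.0853). In the list of complexes II and III, which also holds cytochrome c, 2 of 14 were raised. These were Uqcrb (0.18) and Cycs (0.44), the latter encoding cytochrome c. Complex IV had 1 raised gene of 13, Cox7b (0.27), and ATP synthase 1 of 17, Atp5md (0.19). These 4 genes outside the complex I list were not called with GC and length offsets. The medians of these lists lay between -0.068 and -0.013. The calls depended on the model, since with the axis of within-group differences as a term more were lowered than raised. These were 5 against 1 in complex I and 3 against 2 in the list of complexes II and III with cytochrome c. In complex IV they were 2 against 1, and in ATP synthase 2 against 0. Among 78 mitochondrial ribosomal proteins, 3 were raised and 1 lowered. Genes of mitochondrial dynamics and mitophagy had 4 raised members of 14, namely Dnm1l, the fission GTPase (0.22), Opa1, the inner membrane fusion GTPase (0.12), and the mitophagy receptors Bnip3l (0.25) and Fundc1 (0.33), while Mief2, which recruits the fission GTPase, was lowered (-0.35). The list median was -0.018, with 0.045 in Akita and -0.038 in WT mice, and with the axis of within-group differences 3 were raised and 3 lowered. None of these 5 genes was called with GC and length offsets, and Opa1 was called in 6 and Mief2 in 14 of the 20 leave-one-out fits. Esrra, a nuclear receptor of mitochondrial gene programmes, was lowered (-0.29) as the only called gene of 10 biogenesis regulators, but not with GC and length offsets (edgeR adjusted p = 0.144) and in 7 of the 20 leave-one-out fits.

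Among the genes that clear dicarbonyls and glycation products, 2 of 18 were lowered (against 2.3% of all genes) and 0 raised. The list median was -0.047, but 0.028 in Akita and -0.096 in WT mice. Fn3k (chromosome 11, 121434913 to 121450491), a kinase that removes early glycation products from proteins, measured 12.8, 13.5, 14.3, 14.5 and 14.7 CPM in WT vehicle and 10.3, 11.5, 11.6, 11.7 and 13.1 CPM in WT MitoGamide mice. In Akita mice its values were 10.9, 12, 13.5, 13.9 and 14.4 CPM on vehicle and 9.02, 9.7, 10.3, 10.4 and 10.9 CPM with treatment. The groups overlapped by single mice, and the change was -0.31 (SE 0.06, edgeR adjusted p = 0.00656), also called with GC and length offsets (edgeR adjusted p = 0.0227). Akr7a5, an aldo-keto reductase, fell by 0.29 on the log2 scale (SE 0.082, edgeR adjusted p = 0.0378), but not with GC and length offsets (edgeR adjusted p = 0.496) and only in 8 of the 20 leave-one-out fits. Glo1, the first enzyme of the glyoxalase pathway, had levels of 65.4 ± 3.03 and 62.4 ± 4.44 CPM in WT mice and 57.4 ± 3.05 and 57.7 ± 3.86 CPM in Akita mice, vehicle first (SD, n = 5, log2 fold change -0.03, SE 0.044, edgeR adjusted p = 0.736). Hagh, the second glyoxalase, had a log2 fold change of 0.02 (SE 0.066, edgeR adjusted p = 0.892).

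In the antioxidant group, 1 of 22 genes was raised, a share near the 3.52% of all genes, and 0 were lowered. This was Nfe2l2, which encodes NRF2 itself (62.2 ± 7.65 against 71.4 ± 7.38 CPM in WT and 64.5 ± 5.94 against 82.2 ± 10.3 CPM in Akita mice, SD, n = 5, log2 fold change 0.27, edgeR adjusted p = 0.0227). Its treated and vehicle values overlapped in WT but not in Akita mice, and it was not called with library size as a covariate (edgeR adjusted p = 0.0988). Gstm5 (0.25) was raised as 1 of 20 glutathione S-transferases. Hif1a, the hypoxia-inducible factor, was raised (0.32) as the only called gene of 16 hypoxia-inducible genes, but not with GC and length offsets (edgeR adjusted p = 0.0524). Of 14 p53 targets, Ccng1 (0.24) and Plk2 (0.29) were raised and Bax (-0.32) was lowered, where 3.52% of all genes were raised and 2.3% lowered. Plk2 alone was called with GC and length offsets (edgeR adjusted p 0.205 for Ccng1 and 0.287 for Bax). Bax alone was called with the axis of within-group differences (edgeR adjusted p 0.0185, against 0.0539 for Plk2 and 0.0906 for Ccng1). Ccng1 was called in 12, Plk2 in 18 and Bax in all 20 leave-one-out fits. In the lists of xenobiotic metabolism (30 tested), fatty acid oxidation (18), cholesterol and fatty acid synthesis (18), heat shock (12), immediate early genes (16), circadian clock (18), interferon-stimulated genes (20), antigen presentation (14), tubular injury (15) and the mitochondrial unfolded protein response (12), 0 genes were called.

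Most of the called translation genes were raised, where 3.52% of all genes were raised and 2.3% lowered. Of 84 cytosolic ribosomal proteins, 9 were raised (Rps6, Rps24, Rps25, Rpl7a, Rpl17, Rpl21, Rpl23a, Rpl26 and Rpl32, between 0.20 and 0.43) and 1 lowered (Rpl27, -0.44). Rpl17 was called in 9, Rpl7a in 13 and Rpl26 in 14 of the 20 leave-one-out fits. Rps25 and Rpl32 were called in 17, Rpl27 in 18 and the others in all 20. The list median was 0.045, with 0.083 in Akita and 0.0017 in WT mice. With GC and length offsets 15 were raised and 0 lowered, but with the axis of within-group differences as a term 3 were raised and the median was 0.0061. Of 67 initiation and elongation factors, 10 were raised, among them Eif2s1 (0.28), Eif3e (0.29) and Eif5b (0.23), and 1 lowered, Eif4ebp2 (-0.23), which encodes a repressor of the cap-binding protein. The list median was 0.049, with 0.069 in Akita and 0.0017 in WT mice. With GC and length offsets 1 factor was still raised, Eif3h (0.17 without offsets), while the list median was 0.089. With the axis of within-group differences 7 factors were raised and 2 lowered, and the median was 0.0089. Eif3h was not called with the axis (edgeR adjusted p = 0.087), and was called in 12 of the 20 leave-one-out fits. Its change was 0.27 in Akita and 0.073 in WT mice. Small GTPases had 7 raised members of 71 and 0 lowered, with Rap1a (0.28) and Rap1b (0.31) among them. The list median was 0.072, with 0.138 in Akita and 0.0012 in WT mice. The raised members were 2 with GC and length offsets, where the median was 0.082 and neither Rap1a nor Rap1b was called (edgeR adjusted p 0.148 and 0.0724), and 3 with the axis of within-group differences, where the median was 0.034. Of 39 splicing factors 4 were raised, Hnrnpa3, Hnrnpc, Srsf10 and Sf3b6, and Hnrnpa0 was lowered, of which Hnrnpa3 alone was called with GC and length offsets. Hnrnpa0 was called in 6, Srsf10 and Sf3b6 in 15, and Hnrnpa3 and Hnrnpc in all 20 leave-one-out fits. Reads shared with processed pseudogenes can be divided between copies for ribosomal and related genes.

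Zinc finger genes named Zfp held 27 raised and 6 lowered members of 330 tested, where 3.52% and 2.3% of all genes were called, with a median of 0.081 (0.089 in WT and 0.092 in Akita mice). Zfp759 rose from 4.51 ± 0.567 to 5.92 ± 0.491 CPM in WT and from 4.41 ± 0.345 to 6.69 ± 0.762 CPM in Akita mice (SD, n = 5, log2 fold change 0.49, edgeR adjusted p = 0.00304), without overlap. Zfp771 was lowered (-0.48, edgeR adjusted p = 0.00324), but by less with GC and length offsets (-0.23, edgeR adjusted p = 0.141). Chosen after the values were seen, the window chr2:175000001-180000000 held 46 tested genes, of which 13 were raised and 0 lowered, or 28.3% against 3.52% over all genes. These included Zfp966, Zfp970, Zfp971, Gm14305, Gm14325, Gm14403 and Gm14440, with log2 fold changes between 0.32 and 0.51. Of the 13, 4 were called with GC and length offsets, Gm14295, Gm14305, Gm14325 and Zfp971. Genes of this cluster are near-identical copies among which reads are hard to assign, so that they are not independent measurements. With GC and length offsets 7 Zfp genes were raised and the list median was still 0.082.

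Several of the strongest lowered entries outside well-annotated protein-coding genes had few counts or overlapped other genes. Gm15432, a processed pseudogene on chromosome X (29564014 to 29564208), measured 1.11, 1.27, 1.39, 1.61 and 2.07 CPM in WT vehicle mice and 0.14, 0.275, 0.336, 0.339 and 0.66 CPM with MitoGamide. In Akita mice it was 1.63, 1.65, 2.09, 2.56 and 2.59 CPM on vehicle and 0.28, 0.725, 0.904, 0.954 and 1.06 CPM with treatment. There was no overlap (log2 fold change -1.68, SE 0.23, edgeR adjusted p = 0.00123), and it was also called with all 40 libraries (edgeR adjusted p = 0.0111). Gm37167, an unconfirmed transcript on chromosome 9, was at 0 in 4 of 5 treated mice of each genotype and at 0.514 CPM in the remaining Akita and 0.188 CPM in the remaining WT mouse. On vehicle it ranged from 2.23 to 5.65 CPM in Akita mice and from 0 to 7.54 CPM in WT mice, where 2 of 5 mice were at 0. Gm20458, an entry annotated as protein-coding on chromosome 2, overlaps Dbndd2 and Sys1 on the same strand, and ranged from 0 to 0.807 CPM in treated and from 0 to 5.65 CPM in vehicle mice. The long noncoding Gm49272 was lowered (-0.62, edgeR adjusted p = 0.00697). CT010467.2, an entry without a position in the annotation used, ranged from 1900 to 3660 CPM on vehicle and from 1160 to 1780 CPM with treatment (log2 fold change -0.69, edgeR adjusted p = 0.00123).

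The raised entries of this kind were copies of expressed genes. Ptges3-ps (0.62), Ppp1ccb (0.59), Rpl14-ps1 (0.82) and Rps7-ps3 (0.57) are processed pseudogenes, and their effects were 0.51, 0.34, 0.36 and 0.27 in WT and 0.73, 0.84, 1.29 and 0.87 in Akita mice. Among protein-coding genes, the largest rises were those of Ccdc184 (1.43), Gm49345 (1.04) and Commd1b (0.87), a copy of Commd1 that overlaps it. Ccdc184 rested on the Akita mice, with 0.249 ± 0.103 CPM on vehicle and 1.66 ± 0.674 CPM with MitoGamide against 0.609 ± 0.304 and 0.748 ± 0.494 CPM in WT mice (SD, n = 5), and was called in 10 of the 20 leave-one-out fits. Gm49345, which overlaps Zfp729a and Zfp729b, and Neurl2, which overlaps Ctsa on the opposite strand and was lowered (-1.08), had few counts, below 7 CPM in each library.

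The effect was compared between genotypes in 2 ways. In the fit with an interaction term, 0 genes were called by edgeR and 0 by DESeq2, while 1435 had an unadjusted p under 0.05. With the spread shared over the 20 libraries, 851 genes (4.93% of those tested) were called in Akita mice alone and 0 in WT mice alone, where 1520 had an unadjusted p under 0.05 and DESeq2 called 32. The Akita count was 1507 with DESeq2, 376 without a filter on low counts, 37 with all 40 libraries and 52 with the axis of within-group differences. With GC and length offsets it was 819, and with library size as a covariate 796. It was 303, 396, 483 and 517 without Akita vehicle replicate 4, 2, 1 or 5. Among the 1005 genes called over both genotypes, the median change in their own direction was 0.32 in Akita and 0.22 in WT mice, the Akita effect was the larger for 780, and 604 had an unadjusted p under 0.05 in each genotype. Gm10259 and Nhs were among the genes with the smallest p for the interaction, and neither reached significance (edgeR adjusted p = 0.528 for each). Nhs, which regulates actin remodelling, had a log2 fold change of -0.27 in Akita and 0.30 in WT mice.

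In the second comparison, each genotype was fitted on its own 10 libraries, so that no library was shared. Of 214 genes called in Akita mice, 212 were tested in WT mice, where 196 (92.5%) had the same direction, against 61.7% of all 16723 genes tested in both. The WT change in the Akita direction had a median of 0.18, and 72 of the 212 also had an unadjusted p under 0.05 in WT mice, where 8.84% of all genes met both conditions. With DESeq2, 1066 Akita calls were looked up and 85.4% had the same direction. Across the 16723 genes the Spearman correlation of both effects was 0.25, given as a description, since genes are not independent and both effects carry the trend on base composition described next.

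Base composition separated the genes that rose from those that fell. The longest transcripts of the raised genes had a median GC content of 41.6% and length of 3830 bases, those of the lowered genes 56.6% and 2965 bases, and those of all tested genes 48.4% and 3162 bases. In the lowest-GC of 5 equal classes, 370 genes were raised and 2 lowered, and in the highest-GC class 7 were raised and 270 lowered. The median log2 fold change went from 0.096 in the lowest to -0.12 in the highest class, and the order was the same in both genotypes. Within libraries, the difference between the highest and the lowest class (median log2 deviation) was -0.106 to 0.156 in WT vehicle and -0.465 to -0.14 in WT MitoGamide mice, without overlap. In Akita mice it was 0.123 to 0.297 on vehicle and -0.238 to 0.255 with MitoGamide. With GC and length offsets 146 of the 1005 genes were still called in the same direction (113 raised and 33 lowered), Dek, Mafg, Romo1, Pex26, mt-Nd3 and Fn3k among them. The origin of the GC trend was not tested.

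**Figure D4:**
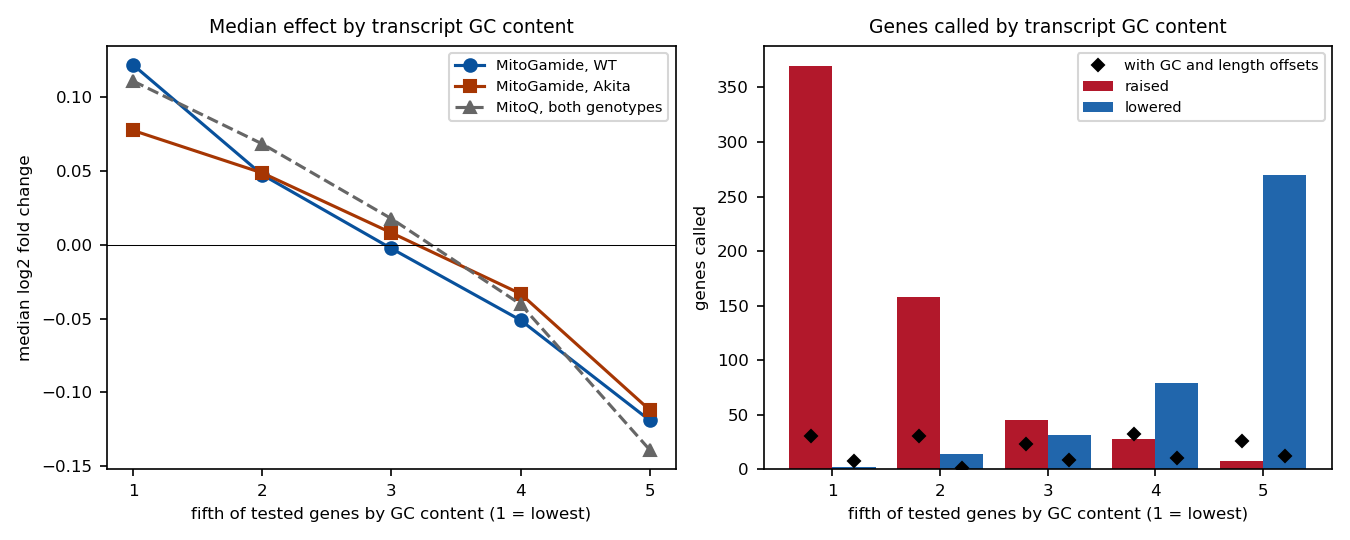
Left, median log2 fold change of tested genes in 5 classes of transcript GC content, for MitoGamide in WT and in Akita mice and for MitoQ over both genotypes. Right, number of genes raised (red) and lowered (blue) by MitoGamide in each class, with diamonds for the numbers with GC and length offsets. The medians fall from the lowest to the highest class in all 3 lines, and the bars from 370 raised at the left to 270 lowered at the right.

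Markers of other cell types were examined because bulk cortex holds several. None of the tested markers of tubule segments, podocytes, endothelium, mesangium, macrophages, lymphocytes, erythroid cells, hepatocytes or adrenal cortex was called. The 9 endothelial markers had a median log2 fold change of 0.29, and their summed level was 451 to 516 CPM in Akita vehicle and 553 to 840 CPM in Akita MitoGamide mice, but 398 to 560 and 436 to 742 CPM in WT mice. All 5 erythroid markers were higher in both genotypes, with a median of 0.55 and sums of 638 to 1512 against 949 to 2766 CPM in Akita and 481 to 1474 against 633 to 2519 CPM in WT mice. The 8 markers of mesangium, stroma and smooth muscle had a median of 0.28 (0.45 in Akita and 0.070 in WT mice), the 3 tested B cell markers one of 0.41 (0.68 and 0.147), and the 9 macrophage markers one of 0.085 (0.31 and -0.099). Of 6 adrenal cortex markers 1 was tested, and it stayed under 5 CPM in every library. Whether cell composition had a part in the changes was not tested.

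The water arm gave a comparison with MitoQ, a ubiquinone linked to the same lipophilic cation. MitoQ against water over both genotypes called 0 of 18225 genes with edgeR, with 1033 at an unadjusted p under 0.05. These libraries were more variable than those of the ethanol arm. Mitochondrial messages made up 1.535% to 5.714% of their counts, against 4.84% to 8.267% in the ethanol arm. The ribosomal RNA entry CT010467.1 reached 16.56% of counts, against 2.73% in the ethanol arm. The part of these differences in the MitoQ effects was not tested. In the fit of all 40 libraries, however, 961 of the 1005 MitoGamide genes (95.6%) had the same sign with MitoQ, against 66.4% of all tested genes, and the 2 effects share no library. Their median effect in the MitoGamide direction was 0.27 with MitoGamide and 0.17 with MitoQ, and 304 had an unadjusted p under 0.05 with MitoQ. The MitoQ medians also fell with GC content, from 0.11 in the lowest to -0.14 in the highest class. In the middle GC class, 71 of 76 called genes (93.4%) had the same sign, against 60% of all tested genes of that class. The GC and length offsets were not applied to the MitoQ effect. Whether the GC trend had a part in the shared signs was not tested. The difference between the 2 drug effects called 0 genes with edgeR (541 at an unadjusted p under 0.05) and 7 with DESeq2. The drug and the vehicle cannot be told apart in this difference.

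Among single genes, the difference of the MitoGamide and MitoQ effects was -1.64 for Gm15432 (SE 0.45), -0.27 for Pex26 (SE 0.084) and -0.25 for Mafg (SE 0.11), with edgeR adjusted p of 0.904, 0.9999 and 0.9999. The MitoQ effect itself was -0.09 for Gm15432, -0.11 for Pex26 and -0.13 for Mafg. For Dek (0.33 with MitoGamide and 0.26 with MitoQ), Ppig (0.29 and 0.29) and mt-Nd3 (0.59 and 0.48) the difference was 0.06 (SE 0.15), 0.00092 (SE 0.13) and 0.11 (SE 0.19). Several mitochondrial genes had log2 fold changes with MitoQ above those with MitoGamide, such as mt-Nd6 (0.85 against 0.54), without a call for the difference (edgeR unadjusted p = 0.298).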

How the data were processed

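Per the labels and the study's methods, total RNA of renal cortex from individual mice was depleted of ribosomal RNA (NEBNext, directional libraries) and sequenced with single reads. The authors trimmed reads with Skewer at Phred 20, mapped them to GENCODE mouse release 25 transcripts (GRCm38) with kallisto 0.46.1 and summed transcripts per gene in R 4.0.2. The strand setting is not given in the sources used here. The deposited values are estimated counts, whole numbers without scaling, and were used as deposited. Names and places came from GENCODE release 21, in which 99.5% of 55401 identifiers were found. Near-identical copies share reads.

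Counts of the 20 libraries were tested with edgeR 4.0.16 in R 4.3.3 (TMM, quasi-likelihood, genotype plus treatment, mean of at least 10 counts, Benjamini-Hochberg adjusted p under 0.05). Within-genotype effects came from a fit of the 4 groups, and standard errors (SE) were derived from the fold change and its F statistic. CPM are TMM-scaled. P-values measure the spread between mice. Genes named were, among those moved alike, the 10 raised and 10 lowered protein-coding and 4 raised and 4 lowered other genes with the smallest p, the 3 raised and 3 lowered protein-coding genes with the largest change, the 3 with the smallest interaction p, and the 2 members of each list with the smallest p. Some of these genes are not reported here. Other list members given with values, the remaining mitochondrial genes, the chromosome 2 genes, Grem1, Rock2 and Smc3 fall outside this rule and were chosen after values were seen. The members and lists were chosen with earlier results of these data known. Alternatives were DESeq2 1.42.0, other scaling, filters and terms, and each library left out. The GC and length offsets, the axis of replicate differences (from the water arm) and the sum without the 2 highest libraries were added after the data were seen. The scripts were tested on simulated counts, where false calls made up more of the calls than the nominal threshold and smaller changes were recovered less often. The set of 92 genes excludes any that DESeq2 left without an adjusted p. Promoter sequences are from RefSeq (GRCm38.p6).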

Additional observations from a re-analysis of the deposited data

Results flagged for a closer look

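Within groups of 5 mice, 14 of 164 sets of values had 1 mouse set apart from the other 4, where chance gives about 8.2. Akita MitoGamide replicate 5 stood apart for the summed mitochondrial messages (96250 CPM against 54400 to 60230 CPM), Romo1 (14.5 against 18.4 to 19.6 CPM) and Lemd2 (14.1 against 16.6 to 17.5 CPM). Without this library Romo1 and Lemd2 were still called.

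Other mice set apart were Akita vehicle replicate 3 for Renbp (25.5 CPM against 29.9 to 31 CPM), Akita vehicle replicate 2 for Gm10259 (1.77 CPM), Akita MitoGamide replicate 4 for Hnrnpa3 (90.6 CPM against 99.4 to 103 CPM) and Akita MitoGamide replicate 1 for Gm37167 (0.514 CPM against 0 in the others). In WT vehicle mice these were replicate 1 for Ppig (25.6 CPM) and Neurl2 (0.255 CPM), replicate 2 for Gm49272 (3.39 CPM), replicate 4 for the ribosomal RNA entry CT010467.1 (0.242% of counts) and replicate 5 for the TMM scaling factor (1.14). In WT MitoGamide mice it was replicate 5 for Gm37167 (0.188 CPM) and Gm20458 (0.283 CPM).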

How the results depend on the processing

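The main comparison called 1005 genes (608 raised, 397 lowered, 1004 moved alike, 76 without overlap in both genotypes). In the order called, raised, lowered and moved alike, DESeq2 gave 1632, 1027, 605 and 1631; no filter on low counts gave 377, 222, 155 and 376; all 40 libraries in one fit gave 44, 21, 23 and 44; no genotype block gave 412, 263, 149 and 412; library size as a covariate gave 361, 236, 125 and 361; and GC and length offsets gave 179, 141, 38 and 179. Called genes without overlap numbered 49 with no filter, 11 with all 40 libraries and 27 with GC and length offsets. Leaving out each library in turn gave 581 to 1420 called, 360 to 849 raised, 216 to 571 lowered, 581 to 1419 moved alike and 75 to 180 called without overlap, the highest without WT vehicle replicate 2 and the next, 122, without WT MitoGamide replicate 4. Of the 1005 genes, 494 were called in each of these 20 fits. The interaction called 0 genes in all fits run. The difference from MitoQ called 7 genes with DESeq2. RLE scaling (1037 called), a minimum of 10 counts in every library (1155), thinning to the smallest library (839) and the axis of replicate differences (852, with 415 raised and 437 lowered) stayed within 1.5 times. The axis lowered the raised share from 60.5% to 48.7% of the calls, and GC and length offsets raised it to 78.8%. The causes were not tested.

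The replicate numbers did not pair the samples. Over 30 pairs of same-numbered mice, the correlation of deviations lay between -0.154 and 0.0973. A replicate block gave 829 called genes. For 178 called genes that met the naming rule or were added to it, not all of which are given above, 0 of 5505 refits changed direction and 526 lost the call. Detection by count level was not tested.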
